A study of Homo sapiens with 12 samples.

Results

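The genes examined were 8 genes of the red-cell membrane, taken by symbol from the 60609 genes listed in each count file. They comprised GYPB, GYPC, RHAG and KEL, whose proteins carry or accompany blood group antigens, and SPTB, EPB41, ANK1 and EPB42, whose proteins form the membrane skeleton or anchor it. All 8 had enough reads to be tested. RNA had been sequenced from K562, a human leukemia cell line, after 48 h with DMSO, the solvent (3 libraries), or with FT671 at 10 μM, an inhibitor of the deubiquitinase USP7 (3 libraries). The libraries of a treatment came from separate experiments, according to the study's legends. A single cell line, concentration and time point were sampled. The chromatin samples of the same series, taken at 24 h, were not analysed here.

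K562 cells were derived from chronic myeloid leukemia in its blast phase, carry the BCR-ABL1 fusion and express many genes of the red-cell lineage without completing erythroid differentiation. In a red cell, a mesh of spectrin, whose beta chain is encoded by SPTB, lies under the lipid bilayer. Ankyrin (ANK1), with the help of protein 4.2 (EPB42), ties beta spectrin to the anion exchanger band 3 (SLC4A1) and to the Rh complex, while protein 4.1 (EPB41) joins spectrin to short actin filaments and to glycophorin C. The members of this apparatus are known for hereditary spherocytosis and elliptocytosis, in which one of them is defective.

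Library totals ranged from 4555220 to 14250500 counts, and the smallest level regarded as detectable, 3 counts, corresponded to between 0.208 and 0.666 CPM (counts scaled to the size of the library). Of the 8 genes, GYPB, SPTB and EPB41 fell after FT671 and ANK1 rose, whereas GYPC, RHAG, KEL and EPB42 did not pass the test (edgeR, quasi-likelihood F test, adjusted p of 0.05 by Benjamini-Hochberg, 13895 genes). Among all genes tested, 26.5% were called lower and 23.6% higher, so that 3 lower and 1 higher of 8 is to be read against a background in which about as many genes were called as not. In 5 of the 8 genes every FT671 library lay below every DMSO library, and in 1 every FT671 library lay above, as was the case in 30.3% and 26.8% of all genes. At the threshold of the study's methods, 1e-05, which 4.13% of genes passed as lower and 1.79% as higher, edgeR called 0 of the 8 genes in either direction. DESeq2 called 2 lower at that threshold, EPB41 and SPTB, and by either tool 3 lower and 1 higher had an unadjusted p under 0.05. Over the 8 genes the log2 fold change had a median of -0.27, compared with -0.010 over all genes tested. As RNA was taken from whole cultures, fewer cells expressing a gene and less RNA per cell cannot be told apart.

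**Figure D1:**
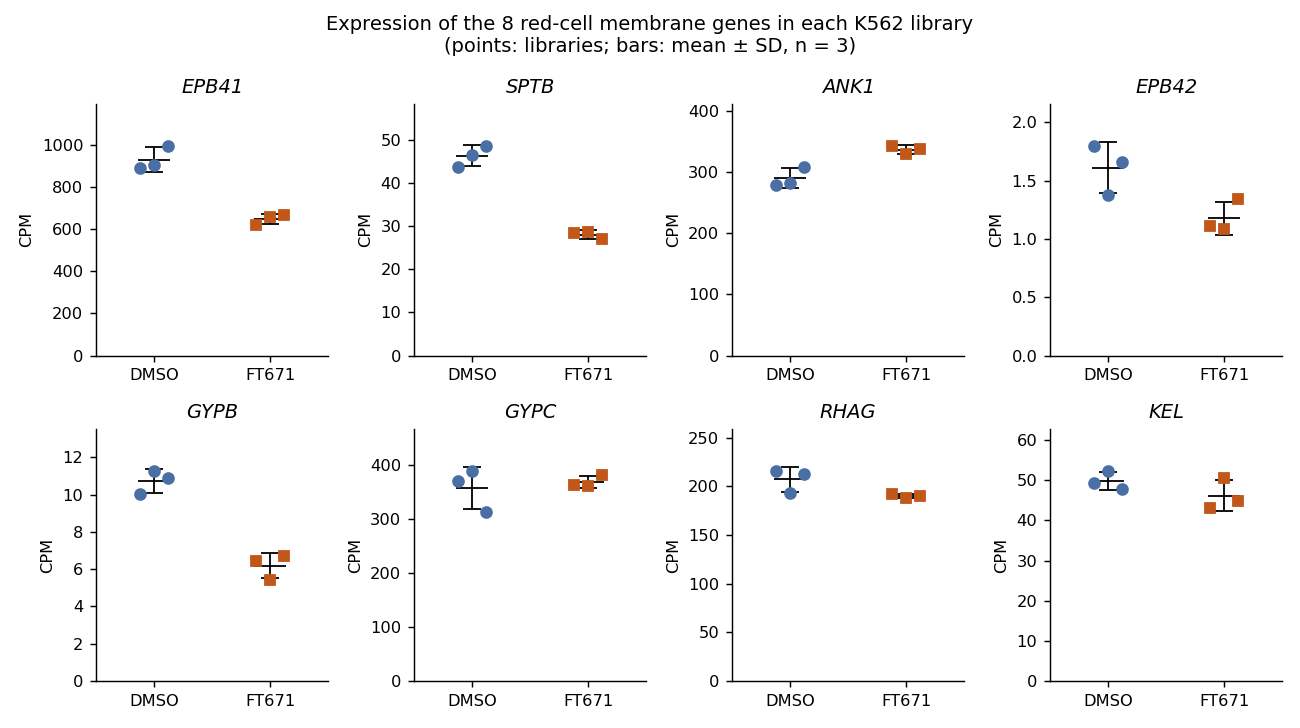
Expression of the 8 red-cell membrane genes in CPM (vertical axes, each starting at 0) in the 3 DMSO libraries (blue circles) and the 3 FT671 libraries (orange squares), with the mean ± SD of each group. The FT671 libraries lie below all DMSO libraries for EPB41, SPTB, GYPB, RHAG and EPB42 and above them for ANK1, while the groups overlap for GYPC and KEL.

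Among the genes of the spectrin mesh, SPTB, which encodes the erythroid beta chain, was expressed at 43.8, 46.4 and 48.6 CPM in the DMSO libraries and at 28.4, 28.7 and 26.9 CPM in the FT671 libraries. The groups were well apart, and the spread within each was small. The means were 46.2 ± 2.43 and 28.0 ± 0.965 CPM (SD, n = 3 each), and SPTB fell by 39.4%. On the log2 scale SPTB changed by -0.72 ± 0.0989 (SE), with a 95% interval from -0.94 to -0.51 and an adjusted p of 4.14e-05 (edgeR). SPTB (ENSG00000070182) lies on chr14:64746283-64879907, minus strand, in hg38. Of its exonic bases 23.0%, or 3408, also belong to exons of PLEKHG3 on the opposite strand. PLEKHG3 itself received only between 1 and 7 counts in a library, and how reads from the shared bases were counted is not known.

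EPB41, encoding protein 4.1, had the most counts of the 8 genes, and its spliced forms are known from many tissues besides red cells. It was measured at 887, 902 and 995 CPM in DMSO and at 620, 655 and 666 CPM in FT671. No FT671 library came near the lowest DMSO library. The mean went from 928 ± 58.5 to 647 ± 24.2 CPM and fell by 30.2%, with a log2 fold change of -0.52 ± 0.0707 (SE, 95% interval from -0.67 to -0.37, adjusted p = 4.05e-05, edgeR). EPB41 (ENSG00000159023) lies on chr1:28887091-29120046, plus strand. Its last exon shares 618 bases, 3.09% of its exonic bases, with TMEM200B on the opposite strand. TMEM200B also fell, from 113 ± 12.1 to 72.7 ± 5.33 CPM (log2 fold change -0.62, adjusted p = 9.95e-05, edgeR). As the strand setting of the counting is not given in the sources used here, how reads from the shared bases were counted is not known.

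ANK1, the erythroid ankyrin, was the only one of the 8 genes called higher. It was measured at 279, 282 and 308 CPM in DMSO and at 343, 328 and 337 CPM in FT671. The highest DMSO library lay below the lowest FT671 library, although the distance was smaller than for SPTB and EPB41. ANK1 rose by 16.1%, from 290 ± 16.1 to 336 ± 7.20 CPM, with a log2 fold change of 0.22 ± 0.0688 (SE, 95% interval from 0.068 to 0.36, adjusted p = 0.0179, edgeR). The call of ANK1 was close to the threshold: without DMSO replicate 1, FT671 replicate 1 or FT671 replicate 3 the adjusted p was 0.0881, 0.0585 and 0.0591, respectively, and it was 0.132 without a filter on low counts. The rise itself had the same direction in each of these settings, and with a correction for gene length the log2 fold change was larger, 0.37. That correction also made the fall of EPB41 smaller, -0.39, and moved the median over all genes from -0.010 to 0.044.

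ANK1 (ENSG00000029534) lies on chromosome 8 at 41653220 to 41896741, minus strand, in hg38. An antisense RNA, ENSG00000253389, shares 7.55% of its exonic bases and had between 4 and 17 counts in a library, against at least 1543 for ANK1. The microRNA genes MIR486-1 and MIR486-2, which lie within ANK1, had at most 1 count in a library, which says nothing of the mature microRNA.

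The levels of EPB41 and ANK1 drew together. The ratio of their levels was taken per kilobase of exon (RPKM, which is CPM divided by exon length). It was 1.75, 1.76 and 1.78 in the DMSO libraries and 0.995, 1.10 and 1.09 in the FT671 libraries. Only the change of this ratio is free of the exon lengths, which include exons of alternative transcripts. In CPM, EPB41 remained above ANK1 after FT671, with means of 647 and 336. The mean ratio fell from 1.76 ± 0.0131 to 1.06 ± 0.0567 (SD, n = 3 each, log2 difference -0.73). A two-sided exact permutation test gave p = 0.1, the smallest that 3 libraries against 3 allow. As all FT671 libraries lay below all DMSO libraries for EPB41 and above them for ANK1, this p was fixed in advance. This ratio, like that of GYPB to GYPC, was chosen after the values were seen.

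EPB42, the gene for protein 4.2, was the least expressed of the set, with 26, 15 and 9 counts in DMSO and 5, 6 and 15 counts in FT671. In CPM these were 1.80, 1.37 and 1.66 against 1.11, 1.08 and 1.34. Every FT671 library lay below every DMSO library, but by a margin of very few reads. The log2 fold change was -0.41 ± 0.326 (SE) and did not pass the test (adjusted p = 0.322, edgeR). Its 95% interval, from -1.11 to 0.29, covers a fall larger than that of SPTB as well as a rise as large as that of ANK1, and a change of either size was not detectable at this depth. EPB42 (ENSG00000166947) lies on chr15:43197227-43221018, minus strand, and 15.2% of its exonic bases are shared with the same-strand RNA ENSG00000285117, which received 1 count in 1 library.

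GYPB encodes glycophorin B, the sialoglycoprotein that bears the S and s antigens. It was measured at 10.0, 11.3 and 10.9 CPM in the DMSO libraries and at 6.44, 5.41 and 6.70 CPM in the FT671 libraries. All FT671 values were well below the lowest DMSO value. GYPB fell by 41.4%, from 10.7 ± 0.630 to 6.19 ± 0.682 CPM, on few reads, between 29 and 145 in a library. Its log2 fold change was -0.77 ± 0.163 (SE, 95% interval from -1.12 to -0.42, adjusted p = 0.00136, edgeR).

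GYPB (ENSG00000250361) lies on chr4:143996104-144019380, minus strand, beside its related copy GYPE. Of the 50-base words in the transcripts of GYPB, 17.7% also occurred in other genes, only 1.03% in GYPE. Reads of GYPB may thus have been shared out among genes, and its value is uncertain to that extent. GYPE went from 21.3 ± 2.54 to 9.53 ± 0.495 CPM and fell with GYPB (log2 fold change -1.13, adjusted p = 1.70e-05, edgeR).

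GYPC encodes glycophorins C and D, which carry the Gerbich antigens and bind protein 4.1, and it is unrelated in sequence to GYPB. It showed 369, 388 and 313 CPM in DMSO and 363, 361 and 380 CPM in FT671. The values of FT671 lay inside the range of DMSO, which was widened by replicate 3. The log2 fold change was 0.044 ± 0.0816 (SE, adjusted p = 0.676, edgeR), and its 95% interval, from -0.13 to 0.22, does not reach the fall of GYPB, SPTB or EPB41. Without DMSO replicate 3 the value was -0.046. GYPC (ENSG00000136732) lies on chr2:126656133-126696667, plus strand, and no 50-base word of its transcripts occurred in another gene. The ratio of GYPB to GYPC, in RPKM, was 0.0515, 0.0549 and 0.0660 in DMSO and 0.0336, 0.0283 and 0.0333 in FT671 (log2 difference of the means -0.85, two-sided exact permutation p = 0.1, the smallest possible).

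**Figure D2:**
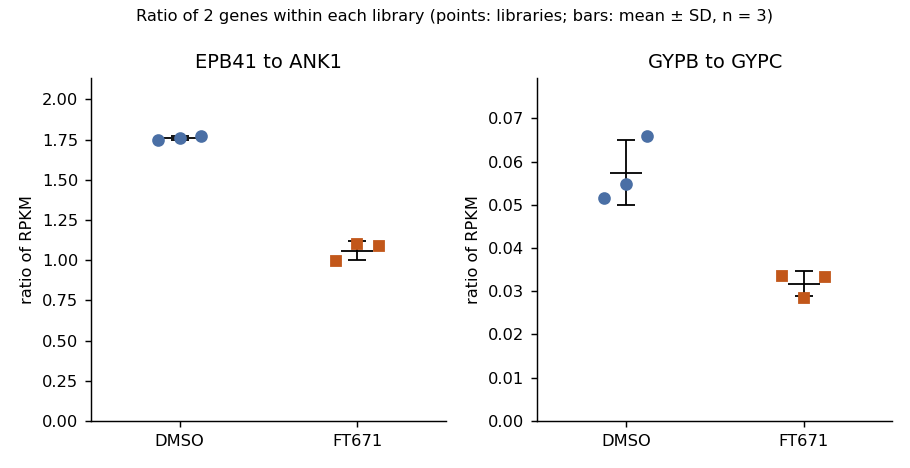
Ratio of the RPKM values of 2 genes within each library (vertical axes, no unit, starting at 0) for EPB41 to ANK1 and GYPB to GYPC, with DMSO libraries as blue circles, FT671 libraries as orange squares and the mean ± SD of each group. Both ratios were lower in every FT671 library than in any DMSO library, and the ratio of EPB41 to ANK1 came down from 1.76 to 1.06.

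RHAG, the Rh-associated glycoprotein, is needed to bring the Rh proteins to the cell surface. It was measured at 216, 193 and 213 CPM in DMSO and at 192, 188 and 190 CPM in FT671. DMSO replicate 2 was barely above the highest FT671 library, so the groups were separate by a narrow margin. The log2 fold change was -0.13 ± 0.0714 (SE, adjusted p = 0.161, edgeR), with a 95% interval from -0.28 to 0.028. RHAG (ENSG00000112077) lies on chr6:49605175-49636839, minus strand. The Rh antigen genes themselves, RHD and RHCE, had 5.94 ± 0.944 and 5.81 ± 1.71 CPM in DMSO and 5.0 ± 0.149 and 5.56 ± 0.571 CPM in FT671. Neither passed the test (adjusted p = 0.317 for RHD and 0.545 for RHCE, edgeR), and as near-identical copies they too may share reads.

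KEL encodes the Kell glycoprotein, an endopeptidase linked on the cell surface to the XK protein. KEL was measured at 49.4, 52.3 and 47.9 CPM in DMSO and at 43.1, 50.5 and 44.9 CPM in FT671. The FT671 library with the highest value lay within the range of the DMSO libraries. KEL had a log2 fold change of -0.12 ± 0.0961 (SE, adjusted p = 0.339, edgeR, 95% interval from -0.32 to 0.091). Its partner XK went from 72.2 ± 6.90 to 59.9 ± 6.14 CPM, a log2 fold change of -0.25 that passed the test narrowly (adjusted p = 0.0494, edgeR). KEL (ENSG00000197993) lies on chr7:142941114-142962363, minus strand, and no annotated gene overlaps it.

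**Figure D3:**
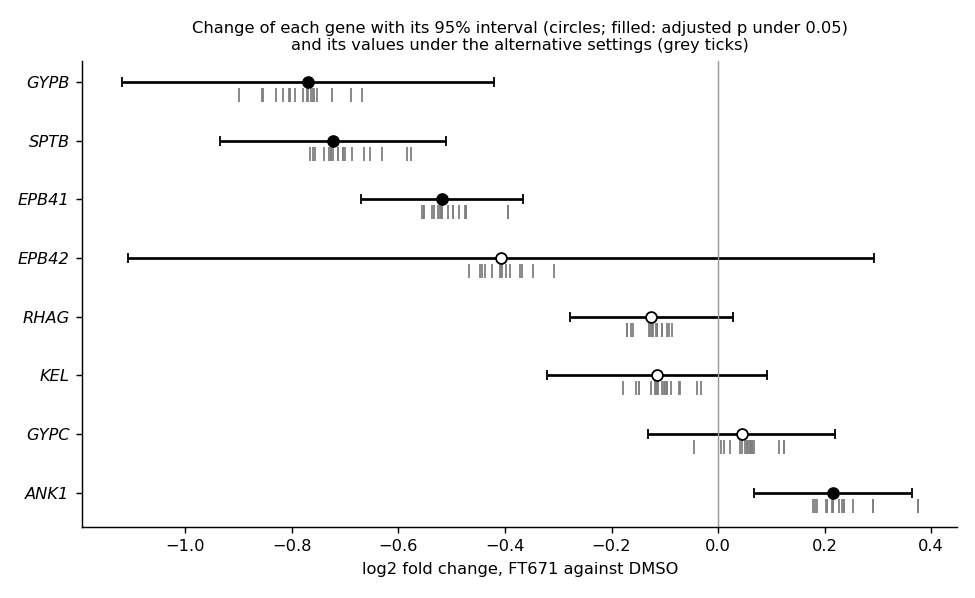
The log2 fold change of each gene, FT671 against DMSO (horizontal axis), as circles with the 95% interval, filled where the adjusted p was under 0.05, and grey ticks for the values under the alternative settings. GYPB, SPTB and EPB41 lie left of 0 with intervals that end before it, ANK1 lies right of it, and the intervals of EPB42, RHAG, KEL and GYPC include 0.

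Promoter sequences are shown for the 3 genes that fell and for RHAG and KEL, which did not pass the test, because erythroid genes are known to be bound by GATA1 and KLF1 at short words near their starts. The 250 bases before a RefSeq start site (GRCh38.p14) were searched on both strands for GATA words, that is GATA preceded by A or T and followed by A or G, and for CCNCNCCC, the CACCC-type word. No match of a GATA word overlapped a match of CCNCNCCC in these windows. Matches are in capitals, read 5′ to 3′ along the gene's strand, so that a word on the other strand appears as its reverse complement, and neighbouring CCNCNCCC matches run together. The windows were chr4:144019381-144019630 (minus strand) for GYPB, chr14:64879908-64880157 (minus) for SPTB, chr1:28886850-28887099 (plus) for EPB41, chr6:49636840-49637089 (minus) for RHAG and chr7:142962364-142962613 (minus) for KEL.
GYPB: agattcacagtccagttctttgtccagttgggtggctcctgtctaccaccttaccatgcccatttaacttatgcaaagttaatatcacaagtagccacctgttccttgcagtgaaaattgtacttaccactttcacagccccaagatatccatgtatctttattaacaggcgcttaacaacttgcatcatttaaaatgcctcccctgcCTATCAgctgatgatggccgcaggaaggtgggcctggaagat
SPTB: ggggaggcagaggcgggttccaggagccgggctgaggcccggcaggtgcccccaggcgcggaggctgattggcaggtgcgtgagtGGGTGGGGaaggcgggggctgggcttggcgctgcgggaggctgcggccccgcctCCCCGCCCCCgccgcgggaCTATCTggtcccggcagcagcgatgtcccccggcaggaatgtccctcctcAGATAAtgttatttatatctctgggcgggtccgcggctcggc
EPB41: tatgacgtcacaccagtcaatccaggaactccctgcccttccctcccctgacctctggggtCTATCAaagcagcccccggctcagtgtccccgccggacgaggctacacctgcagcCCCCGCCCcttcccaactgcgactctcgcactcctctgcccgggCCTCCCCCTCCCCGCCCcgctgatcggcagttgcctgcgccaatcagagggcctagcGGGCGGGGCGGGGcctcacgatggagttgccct
RHAG: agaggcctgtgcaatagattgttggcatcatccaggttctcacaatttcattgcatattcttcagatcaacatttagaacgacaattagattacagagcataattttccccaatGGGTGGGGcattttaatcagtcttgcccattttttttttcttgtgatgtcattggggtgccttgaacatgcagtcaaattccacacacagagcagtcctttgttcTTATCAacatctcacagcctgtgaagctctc
KEL: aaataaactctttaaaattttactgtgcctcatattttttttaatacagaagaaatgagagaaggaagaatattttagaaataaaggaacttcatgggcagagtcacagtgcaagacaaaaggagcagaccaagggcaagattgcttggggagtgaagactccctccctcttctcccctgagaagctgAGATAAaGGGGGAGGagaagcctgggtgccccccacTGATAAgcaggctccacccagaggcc

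GATA words were present on both sides of the call. Counted back from the start site, the last base of the word as printed was at 37 in GYPB, at 87 and 37 in SPTB, at 184 in EPB41, at 26 in RHAG and at 57 and 21 in KEL. The printed windows of EPB41, SPTB, RHAG and KEL also held CCNCNCCC, whereas that of GYPB did not. GYPB, SPTB and EPB41 each had a further window that is not printed. That window held no GATA word in SPTB and in EPB41, and it held 2 in GYPB. The search covered 10 windows of 7 of the 8 genes, and ANK1, the gene called higher, was not among them. A GATA word was held by 8 of these windows, compared with 22.3% of all 35116 windows. CCNCNCCC was found in 8 of the 10, compared with 53.4% of all windows, and both words together in 6 of the 10, compared with 6.8%. GYPB, SPTB and EPB41 entered these counts with 2 windows each, those of GYPB covering largely the same bases, so the 10 windows are not independent. All 7 genes had a GATA word in at least 1 window, EPB42 and GYPC included, so that these words did not separate the genes that fell from those that did not pass the test. A match describes the sequence and not the binding of a factor.

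Taken per length of exon, the 8 genes kept one order of levels in both treatments: GYPC, RHAG, EPB41, ANK1, KEL, GYPB, SPTB and EPB42. In DMSO, GYPC had 98.8 ± 10.9 and RHAG 78.8 ± 4.81 RPKM, EPB41 46.4 ± 2.93 and ANK1 26.3 ± 1.47 RPKM. KEL followed at 13.6 ± 0.613, GYPB at 5.63 ± 0.330, SPTB at 3.13 ± 0.164 and EPB42 at 0.550 ± 0.0743 RPKM. The libraries of each pair of neighbours in this order did not overlap in DMSO. After FT671, EPB41 (32.4 ± 1.21 RPKM) and ANK1 (30.6 ± 0.655 RPKM) overlapped, and the other neighbours remained apart. Levels per length rest on the summed exons of the annotation, which for EPB41, SPTB and ANK1 include exons of alternative transcripts.

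Further genes of the membrane were called in both directions, as were genes at large. Of 38 other blood group and transport genes, 32 were tested, 12 fell, 9 rose and 11 did not pass the test. Among all genes tested, 26.5% were called lower and 23.6% higher. The list had a median log2 fold change of -0.12, which became 0.035 when the libraries were thinned to equal depth. Beside GYPE, the largest falls included GCNT2, the enzyme of the I antigen (log2 fold change -1.07, adjusted p = 0.0232). GCNT2 missed the threshold with DESeq2 (adjusted p = 0.0697) and without DMSO replicate 1, FT671 replicate 1 or FT671 replicate 2 (0.0755, 0.0767 and 0.0603). The largest rises were in ACHE, the acetylcholinesterase that carries the Yt antigens, from 2.52 ± 0.0613 to 7.16 ± 0.987 CPM (1.5, adjusted p = 5.45e-05), in BCAM, the Lutheran glycoprotein, from 11.1 ± 2.29 to 29.9 ± 1.72 CPM (1.49, adjusted p = 1.60e-06), and in the water channel AQP1, from 1.52 ± 0.696 to 4.70 ± 0.205 CPM (1.48, adjusted p = 6.19e-04, all by edgeR). SLC4A1, the band 3 protein to which ANK1 and EPB42 bind, was measured at 1.67 ± 0.392 CPM in DMSO and 3.21 ± 1.52 CPM in FT671 and did not pass the test (log2 fold change 0.75, adjusted p = 0.0969, edgeR).

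All 13 other genes of the membrane skeleton were tested, of which 3 fell, 5 rose and 5 did not pass, with a median log2 fold change of 0.10. Of all genes tested, 26.5% were called lower and 23.6% higher. The genes that fell were ADD1, the alpha chain of adducin that caps actin and recruits spectrin (306 ± 7.02 to 206 ± 7.88 CPM, log2 fold change -0.57, adjusted p = 1.16e-05), the actin gene ACTB (-0.34, adjusted p = 9.22e-04) and tropomyosin TPM1 (-0.27, adjusted p = 0.0251). The largest rises included DMTN, the actin-bundling protein dematin (0.64, adjusted p = 1.74e-04), and the actin-capping gene CAPZB (0.40, adjusted p = 3.60e-04, all by edgeR). TPM1 missed the threshold with DESeq2 (adjusted p = 0.0612), with a correction for gene length (0.236) and without DMSO replicate 1 or 2 or FT671 replicate 1 or 2 (between 0.0521 and 0.106). SPTB, EPB41 and ADD1 were lower. ANK1, DMTN, CAPZB and ADD2, the beta chain of adducin (0.32, adjusted p = 0.00456, edgeR), were higher, so the skeleton genes did not move together. This grouping was made after the values were seen.

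**Figure D4:**
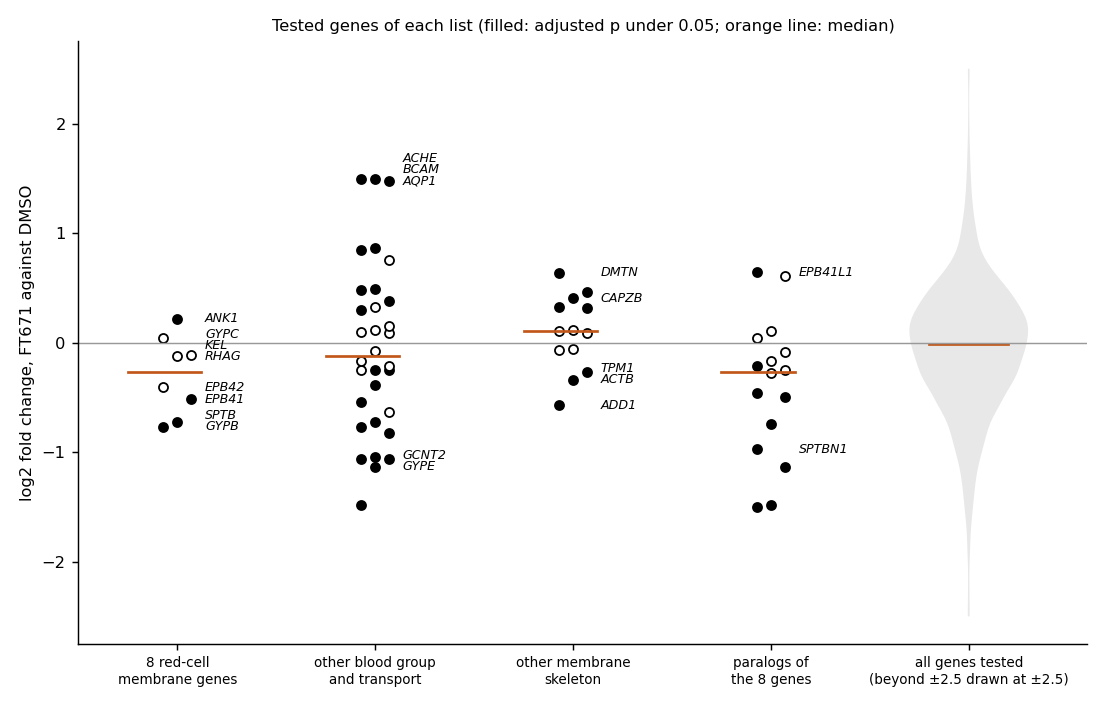
The log2 fold change, FT671 against DMSO (vertical axis), of each tested gene of the 8 red-cell membrane genes and of 3 further lists, filled where the adjusted p was under 0.05, with the list median in orange and the distribution of all 13895 genes tested in grey. Genes of 2 lists, such as GYPE, are drawn in both. Genes of each list lie on both sides of 0, and the medians run from -0.27 for the 8 genes and for their paralogs to 0.10 for the other skeleton genes.

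Over the 6 libraries, the pattern nearest to that of SPTB among 80 other genes of the lists was that of the transglutaminase TGM2, with a root mean square distance of 0.0726 between the centred log2 CPM values, followed by ADD1 (0.0982). ADD1 was also the nearest to EPB41 (0.0576), with the complement regulator CD55 next (0.0800). GYPB was nearest to the mechanosensitive channel PIEZO1 (0.102) and to the erythroid transcription factor TAL1 (0.106), and ANK1 to the membrane scaffold MPP1 (0.0690) and to the beta adducin ADD2 (0.0698). For the genes that did not pass the test, the nearest were SLC29A1 (0.0618) and EMP3 (0.0635) to GYPC, ATP2B4 (0.0480) and RUNX1 (0.0554) to RHAG, ECE1 (0.0768) and ATP2B4 (0.0954) to KEL, and CD55 (0.12) and XK (0.128) to EPB42. These distances compare 6 libraries of 2 treatments and describe the shape of the values alone.

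Of 15 genes of the red-cell program, most of them regulators, 14 were tested, BCL11A being too low. Of these 9 fell, 1 rose and 4 did not pass the test, where 26.5% of all genes tested were called lower and 23.6% higher. The count that rose was 2 without DMSO replicate 2 or with a correction for gene length, and 3 with a correction for GC content. GATA1 went from 297 ± 35.9 to 244 ± 12 CPM (log2 fold change -0.29, adjusted p = 0.0128) and KLF1 from 151 ± 21.5 to 85.9 ± 4.45 CPM (-0.82, adjusted p = 1.47e-05). GFI1B, a repressor needed for erythroid and platelet formation, went from 167 ± 7.02 to 31.0 ± 2.57 CPM (-2.45, adjusted p = 8.85e-10, all by edgeR). The largest other falls were in the erythropoietin receptor EPOR (-1.21) and the GATA1 partner ZFPM1 (-1.20), and LMO2 rose (0.37, adjusted p = 0.0120, edgeR). Most markers of other blood lineages were too low to be tested. Of 10 megakaryocyte markers 2 were tested, of 13 granulocyte and monocyte markers 5, and of 10 lymphocyte markers 2, and GP1BB, GP9, PF4, ELANE, S100A8, S100A9, CD2 and MS4A1 had no count in any library. The summed level of the megakaryocyte markers ran from 29.4 to 30.6 CPM in DMSO and from 28.3 to 31.3 CPM in FT671. That of the granulocyte and monocyte markers was higher after FT671, 137 to 148 against 118 to 122 CPM, with LYZ, PRTN3 and ITGAM called (log2 fold changes 0.49, 1.05 and -0.79, and PRTN3 not without FT671 replicate 3, adjusted p = 0.0564), as was that of the lymphocyte markers, 27.5 to 33.5 against 20.1 to 24.0 CPM, most of it CD3D. Among the megakaryocyte markers GP6 was called (0.52), though not at equal depth (adjusted p = 0.0649, edgeR). The part of any of these in the values of the membrane genes was not tested.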

How the data were processed

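RNA-seq counts of 3 DMSO and 3 FT671 libraries of K562 were analysed. Per the labels and the study's methods, the authors depleted ribosomal RNA (KAPA RNA HyperPrep with RiboErase), sequenced both ends, ran STAR (two-pass) against hg38 and deposited 1 read count per gene, without normalization. The version of STAR, the annotation release and the strand setting are not given in the sources used here. Of 60609 gene identifiers, 60295 took their symbols, positions and exon lengths from GENCODE release 44, and 314 had no match.

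FT671 was compared with DMSO by edgeR 4.0.16 (filterByExpr, TMM scaling, quasi-likelihood test, two-sided, no covariates, R 4.3.3) with Benjamini-Hochberg adjustment over all 13895 genes tested. The fit was tested on simulated data. The standard error is the size of the log2 fold change divided by the square root of F. CPM values used TMM-scaled library sizes, and RPKM values the summed exon length. Intervals are at 95%. Alternatives used DESeq2 1.42.0, other scalings and filters, corrections for exon length and GC content, a replicate block, thinned counts and leaving out each library. P-values measure the spread between these libraries. Replicates of a treatment differed by more than counting error (chi-square per degree of freedom of 2.07 to 8.73).

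Named beside the 8 genes were overlapping genes, GYPE, the 3 largest rises and falls past 0.05 with at least 1 CPM in each further list, and the 2 nearest genes by distance. A few genes that the rule selects are not reported here, but they are included in the counts and medians of the lists. SLC4A1, RHD, RHCE, XK, GATA1, KLF1 and, in the closing section, a few more list members were named outside this rule, after their values were seen. The 8 genes and the lists were chosen with earlier results of these data known. Promoters came from RefSeq.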

Additional observations from a re-analysis of the deposited data

How the results depend on the processing

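GYPB, SPTB and EPB41 kept their direction and their call at 0.05 in every alternative fit. At an adjusted p of 1e-05 edgeR called 0 lower and 0 higher. ANK1 was called higher in the report but lost its call without a filter on low counts (log2 fold change 0.18, adjusted p = 0.132, 0 genes called higher, with 31316 genes tested). When each library was left out in turn, ANK1 ranged from 0.19 to 0.25 and the count of genes called higher from 0 to 1. The calls were lost without DMSO replicate 1, FT671 replicate 1 or FT671 replicate 3. GYPC ranged from -0.046 to 0.11 over the same settings and was negative only without DMSO replicate 3, where it did not pass the test either. RHAG passed the test in a single setting, the gene length correction with replicate block (log2 fold change -0.17, adjusted p = 0.0348), and the cause was not tested. EPB42 gave no value, as too few counts were left, with at least 10 counts required in every library, with thinned counts, or without DMSO replicate 1, DMSO replicate 2 or FT671 replicate 3.

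Whether the replicate numbers pair the libraries was not settled. Same-numbered libraries had correlations of 0.115, -0.0605 and 0.140 in their deviations from the group means over genes. Those of libraries with different numbers ran from -0.168 to 0.125. A replicate block left the calls as they were, at 3 lower and 1 higher, and under it GYPB had a log2 fold change of -0.79, SPTB -0.73, EPB41 -0.52 and ANK1 0.22. Of the list genes 2 gained a call under the block, SLC4A1 (log2 fold change 0.93, adjusted p = 0.0280) and SMIM1 (adjusted p = 0.0165, edgeR).

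The median log2 fold change of all genes lay between -0.053 and 0.044 in all settings. The median of the 8 genes stayed negative and was between -0.31 and -0.12. For lists and for named genes beside the 8, 421 fold changes kept their direction and call and 13 kept the direction but lost the call. Of the list counts, 205 were equal to those reported and 61 changed, 13 of them by over 1.5 times. Of the list medians, 18 moved by more than the spread between libraries and 77 by less. Depth limits EPB42 most, followed by GYPB.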

Other observations

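The relatives of the 8 genes outside the red cell were measured in the same libraries. Of 32 paralogs, 16 were tested, 8 fell, 1 rose and 7 did not pass the test, and 7 had no count in any library. The count that rose was 2 without FT671 replicate 3, and 3 without DMSO replicate 3 or with a correction for gene length. The median log2 fold change was -0.27. For comparison, 26.5% of all genes tested were called lower and 23.6% higher. SPTBN1, a beta spectrin expressed in many tissues, fell as SPTB did, from 564 ± 25.7 to 287 ± 5.66 CPM (log2 fold change -0.97, adjusted p = 1.23e-07, edgeR). The general alpha spectrin SPTAN1 changed less (-0.22, adjusted p = 0.0297, edgeR).

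Relatives of protein 4.1 differed among themselves. EPB41L1 rose from 7.55 ± 1.63 to 11.4 ± 0.342 CPM (log2 fold change 0.64, adjusted p = 0.00629), EPB41L5 fell from 29.2 ± 4.36 to 20.4 ± 0.484 CPM (-0.49, adjusted p = 0.00446) and EPB41L2 had 152 ± 13.8 and 155 ± 6.18 CPM (adjusted p = 0.720, edgeR). ANK3, a relative of ANK1, was lower (-0.46, adjusted p = 0.0377, edgeR) where ANK1 was higher. TGM2, a transglutaminase of the family to which EPB42 belongs as an inactive member, was far more abundant than EPB42 and fell from 359 ± 9.65 to 214 ± 12 CPM (-0.75, adjusted p = 1.51e-06, edgeR). ECE1, an endopeptidase related to KEL, had 129 ± 3.40 and 122 ± 2.57 CPM and did not pass the test (adjusted p = 0.328, edgeR).

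Among the blood group and transport genes, PIEZO1 fell from 487 ± 25.9 to 275 ± 20.3 CPM (-0.83, adjusted p = 1.16e-06) and the potassium channel KCNN4, which opens when PIEZO1 lets calcium in, rose from 16.9 ± 2.04 to 31.7 ± 3.64 CPM (0.86, adjusted p = 6.87e-05, edgeR). The membrane protein stomatin, encoded by STOM, rose from 54.8 ± 2.12 to 98.6 ± 6.51 CPM (0.85, adjusted p = 2.38e-06), while the glucose transporter SLC2A1, with which it associates in red cells, fell from 288 ± 31.5 to 175 ± 4.43 CPM (-0.72, adjusted p = 9.32e-06, edgeR).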
